A study of Rattus norvegicus with 9 samples.

Results

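Neuropeptides and the proteins that package and process them were followed here through 10 genes of cultured rat sympathetic neurons: the peptide precursors Adcyap1, Cartpt, Npy, Gal, Vip and Tac1, the hormone subunit Cga, the granins Vgf and Scg3, and the precursor convertase Pcsk2. The genes were selected on results of these same arrays, so their levels and differences between conditions are given as a description and no p-value is attached to them. They are 10 of 4736 genes that the arrays name through probe sets of 1 gene, and every probe set annotated to a member alone was taken, which makes 15 of 8740.

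The 9 arrays (Affymetrix Rat Genome U34A) hold 3 conditions with 3 replicates each. Control neurons were kept in medium alone for 24 hr, BMP6h neurons received bone morphogenetic protein-7 (BMP-7, 50 ng/ml) for 6 hr and BMP24h neurons received the same dose for 24 hr. All neurons were dissociated from superior cervical ganglia of Holtzman rats at embryonic day 21 and grown in serum-free medium with nerve growth factor (100 ng/ml), with Ara-C for 48 hr to deplete non-neuronal cells, and BMP-7 was added on culture day 5. Each sample pooled several cultures of 1 dissection. Each of the 3 dissections gave 1 sample of every condition and was a replicate, so the spread measured is that between these cultures. Arrays were processed in 2 hybridization batches: batch 1 (10 µg of cRNA) took the first replicate of every condition and batch 2 (5 µg) the remaining replicates. The study asked which transcripts accompany the first dendrites that BMP-7 induces in these neurons.

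Neuropeptides are made as large precursors that enter the regulated secretory pathway, are cut by convertases inside dense core granules and are released on stimulation. Granins are the acidic proteins that help to form those granules, and several of them are themselves cut into active peptides. Many sympathetic neurons use neuropeptide Y beside noradrenaline, while galanin, vasoactive intestinal peptide and substance P are known in these cells above all for their response to injury, loss of target or altered activity. Many peptide genes carry a cAMP response element near their start, a palindrome to which CREB and related factors bind.

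The letters of that element were looked up because several members were lower together at 24 hr. RefSeq promoters (assembly GRCr8) matched all 10 members, and the upstream 250 bases of each were searched on both strands for TGACGTCA, for TGANGTCA and for TGACG, which overlap one another. The full element TGACGTCA stood in the windows of Cartpt and Vgf, 2 of 10 members, against 1.59% of 33469 promoters. TGANGTCA was found in Cartpt, Cga and Vgf, against 8.88% of promoters, and TGACG in 7 of 10 (Cartpt, Vgf, Scg3, Pcsk2, Gal, Vip and Tac1), against 18.2%. Neither Adcyap1 nor Npy held any of them in this window, which says only that these letters are not there. The windows of 4 members are shown because they hold the full element (Cartpt, Vgf), its variant (Cga) or, for comparison, the short form in a gene with little difference between conditions (Vip). Each runs 5′ to 3′ from base 160 to base 51 upstream of the start, and capitals mark the motif letters. They lie at chr2:32991286-32991395 (minus strand, Cartpt), chr12:25277071-25277180 (minus strand, Vgf), chr5:54283180-54283289 (plus strand, Cga) and chr1:44470320-44470429 (plus strand, Vip).
Cartpt: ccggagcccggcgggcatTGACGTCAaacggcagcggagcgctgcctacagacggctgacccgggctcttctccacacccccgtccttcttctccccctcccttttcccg
Vgf: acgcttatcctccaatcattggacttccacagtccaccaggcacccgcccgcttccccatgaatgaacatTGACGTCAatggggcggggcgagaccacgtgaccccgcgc
Cga: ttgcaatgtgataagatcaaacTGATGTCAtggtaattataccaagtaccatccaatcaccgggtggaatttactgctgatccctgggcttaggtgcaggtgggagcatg
Vip: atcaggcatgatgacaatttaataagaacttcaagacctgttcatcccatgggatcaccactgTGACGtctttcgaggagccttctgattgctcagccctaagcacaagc
The element lay 142 to 135 bases upstream in Cartpt and 90 to 83 bases upstream in Vgf. Cga held TGANGTCA at 138 to 131 bases and again at 209 to 202 bases, outside the stretch printed. A match is a description of the letters, and binding was not measured.

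**Figure D1:**
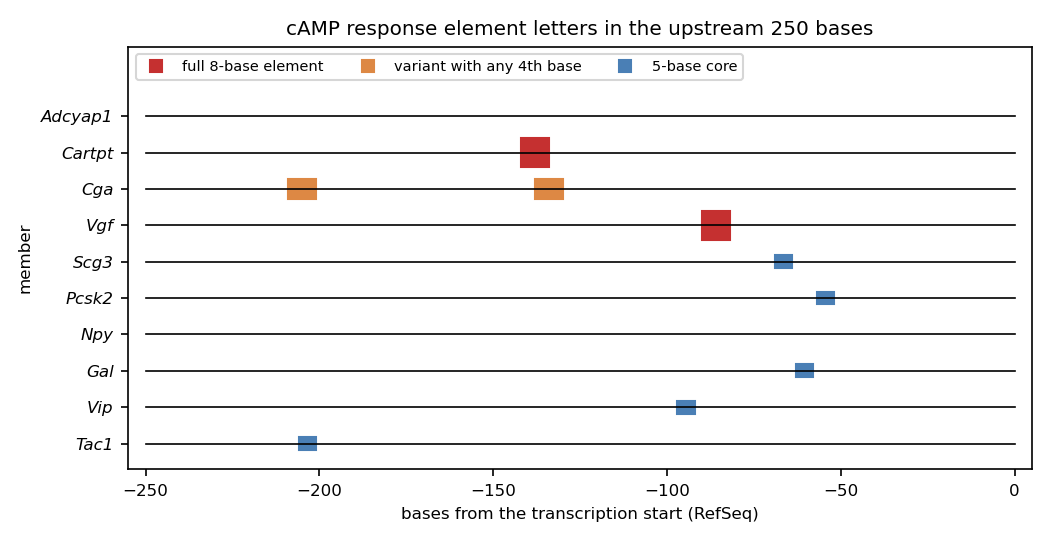
Map of the upstream 250 bases of each member, with the distance from the RefSeq start in bases on the horizontal axis and 1 line per gene; colored blocks mark the full 8-base element, its variant with any 4th base and its 5-base core. The full element lies 142 bases upstream in Cartpt and 90 bases upstream in Vgf, and the lines of Adcyap1 and Npy carry no block.

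The deposited values are log2 expression values between 2.69 and 14.38, and differences between conditions are taken only within a probe set. Where values of different probe sets stand side by side, they give the place on the scale and not relative amounts of RNA. At 24 hr the brightest probe sets of 9 of the 10 members lay below control, with a median log2 difference of -0.42 and a range of -0.95 to 0.24. Over all 8740 probe sets 48.2% lay below control, with a median of 0.007. At 6 hr the member median was -0.07 and 10 of 10 were lower, though Npy and Gal rounded to no difference. Over all probe sets the median was -0.024 and 55.1% lay below control. At 24 hr against 6 hr the member median was -0.28 and 8 of 10 were lower, against 0.025 and 45.1% over all probe sets. The 3 comparisons share arrays and are not independent of one another. In bulk RNA, fewer cells of a type and less RNA per cell cannot be told apart.

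Counts of calls are given for the record, since these contrasts chose the genes and nothing is read from them. In limma, with p-values adjusted over all probe sets, 0 of 15 member probe sets passed in any comparison, where 0.217% of all probe sets passed at 24 hr against control, 0.0458% at 6 hr against control and 0% at 24 hr against 6 hr. At the thresholds of the Methods (unadjusted p under 0.05 with at least a 1.2-fold difference), 8 of 15 passed as lower and 0 as higher at 24 hr, beside 1.74% and 1.6% of all probe sets. None of the 15 passed at 6 hr in either direction (0.847% lower and 0.881% higher overall). For 24 hr against 6 hr, 6 of 15 passed as lower and 0 as higher, beside 1.52% and 1.4%. All 3 BMP24h arrays lay below all 3 control arrays at 8 of 15 member probe sets (7.07% of all) and above them at 1 (5.61%). The BMP6h arrays lay wholly below control at 2 of 15 (6.96%) and wholly above at 1 (3.65%). The BMP24h arrays lay wholly below the BMP6h arrays at 8 of 15 (4.04%) and wholly above at 1 (5.63%).

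**Figure D2:**
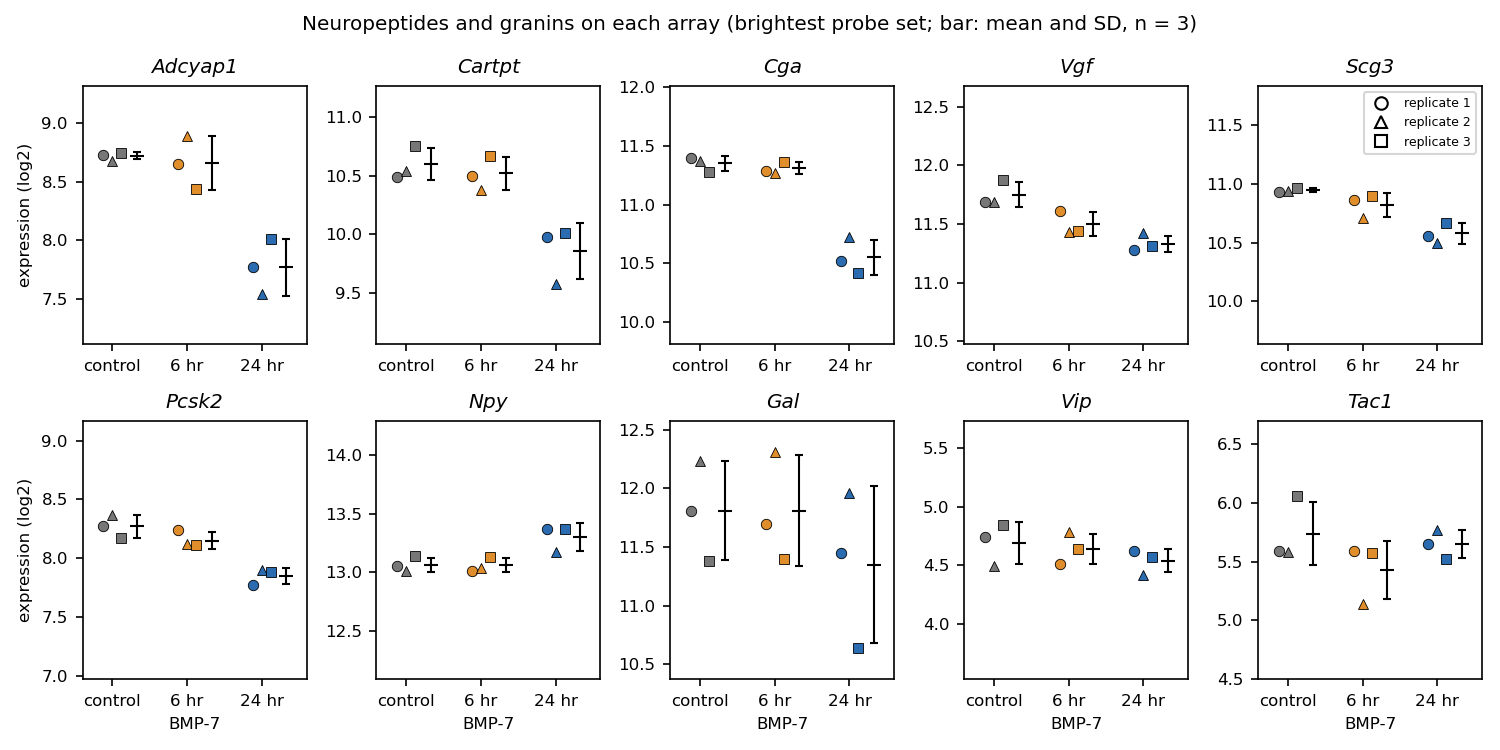
Expression of the 10 members on each of the 9 arrays (vertical axis, log2, all panels spanning the same number of units; horizontal axis, control, 6 hr and 24 hr of BMP-7); symbols give the replicate number, and the bar beside each group is its mean and SD (n = 3). For Adcyap1, Cartpt, Cga, Vgf, Scg3 and Pcsk2 the 24 hr arrays sit below the other 6, narrowly so for Vgf, and for Npy they sit above. For Gal the symbols keep one order in every condition.

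Adcyap1 encodes the precursor of PACAP, a peptide that raises cAMP in sympathetic neurons and in the chromaffin cells of the adrenal. Its brightest probe set (X80290cds_s_at) read 8.73, 8.68 and 8.74 on the control arrays, 8.65, 8.89 and 8.44 at 6 hr and 7.77, 7.54 and 8.01 at 24 hr (replicates 1 to 3). Control and 6 hr overlapped, and all 24 hr arrays lay below both. The log2 difference from control was -0.06 at 6 hr and -0.95 at 24 hr (standard error 0.17 each), a level of 51.9% of control at 24 hr. The difference at 24 hr was -0.97 in batch 1 and -0.93 in batch 2.

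The other probe sets of Adcyap1 differed in how far they followed. At rc_AI228407_s_at the control arrays read 7.74, 7.71 and 7.39, the 6 hr arrays 7.51, 7.14 and 7.64 and the 24 hr arrays 6.36, 6.41 and 6.94, with a log2 difference of -1.05 at 24 hr (standard error 0.21). At M63006_at the values were 7.32, 7.21 and 7.03 in control, 7.20, 7.00 and 7.22 at 6 hr and 6.70, 6.79 and 7.18 at 24 hr. There the difference of -0.30 (standard error 0.17) left the groups overlapping, because replicate 3 at 24 hr reached the control range.

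Cartpt encodes the precursor of CART, a peptide found in sympathetic and sensory pathways and in feeding circuits of the hypothalamus. U10071_at read 10.49, 10.54 and 10.75 in control, 10.50, 10.38 and 10.67 at 6 hr and 9.98, 9.58 and 10.01 at 24 hr. The 24 hr arrays lay below the other 6, which overlapped among themselves. The log2 difference from control was -0.08 at 6 hr and -0.74 at 24 hr (standard error 0.16 each), which left 59.9% of the control level, and it was -0.52 in batch 1 and -0.85 in batch 2 at 24 hr.

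Cga encodes the alpha subunit that the pituitary hormones LH, FSH and TSH have in common. Its brighter probe set, D00575_at, read 11.40, 11.37 and 11.28 in control, 11.29, 11.27 and 11.36 at 6 hr and 10.52, 10.72 and 10.42 at 24 hr. All 24 hr arrays lay below the other 6, by -0.79 from control (standard error 0.12, 57.7% of the control level), while the 6 hr difference was -0.04. The difference at 24 hr was -0.88 in batch 1 and -0.75 in batch 2. The dimmer probe set, AF016702mRNA_at, assigned to Cga by the same platform annotation, read 8.97, 8.90 and 8.80 in control, 9.11, 9.20 and 9.01 at 6 hr and 8.46, 8.62 and 8.55 at 24 hr. It lay above control on every 6 hr array (0.22) and below it on every 24 hr array (-0.35, standard error 0.12 each), so the probe sets had the same direction at 24 hr and not at 6 hr.

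Beta subunits pair with Cga in the pituitary. Their signals, like those of Vip and Tac1, may not have been above background, so their values do not show whether they shared the difference of Cga. The log2 difference at 24 hr was 0.03 for each of Lhb, Fshb and Tshb, with standard errors of 0.13, 0.41 and 0.23. Tshb stood at 0.40 at 6 hr (standard error 0.23, adjusted p = 0.887 in limma). The pituitary marker list (8 of 8 measured) averaged 5.68 to 5.71 on the BMP24h arrays and 5.54 to 5.77 on the control arrays.

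Vgf encodes a granin-like precursor that nerve growth factor induces, and its peptides are released from dense core granules. M74223_at read 11.69, 11.69 and 11.87 in control, 11.61, 11.43 and 11.44 at 6 hr and 11.28, 11.42 and 11.31 at 24 hr. Every treated array lay below every control array, and the 24 hr arrays lay just below the 6 hr arrays (11.42 against 11.43 at the closest). The log2 difference from control was -0.25 at 6 hr and -0.42 at 24 hr (standard error 0.12 each), and the 24 hr level was 75.0% of control. At 6 hr the difference was -0.08 in batch 1 and -0.34 in batch 2.

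Scg3, secretogranin III, helps to sort other granins to the granule membrane. U02983_at read 10.93, 10.94 and 10.97 in control, 10.86, 10.71 and 10.90 at 6 hr and 10.56, 10.50 and 10.67 at 24 hr. The 3 conditions did not overlap: 6 hr lay below control by -0.12 and 24 hr by -0.37 (standard error 0.11 each), or 77.4% of the control level at 24 hr. In both batches the 24 hr difference was -0.37.

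Pcsk2 encodes the convertase PC2, which cuts peptide precursors at paired basic residues inside granules. M83746_at read 8.27, 8.37 and 8.17 in control, 8.24, 8.12 and 8.11 at 6 hr and 7.77, 7.90 and 7.88 at 24 hr. The 24 hr arrays lay below the other 6, with a log2 difference of -0.42 from control (standard error 0.12, 74.7% of the control level), and the 6 hr difference was -0.12. S40669_s_at was noisier, with control arrays at 5.35, 6.09 and 4.83, 6 hr arrays at 5.58, 4.87 and 5.66 and 24 hr arrays at 5.02, 5.00 and 5.46. Its groups overlapped at both times, with a difference of -0.27 at 24 hr (standard error 0.35).

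**Figure D3:**
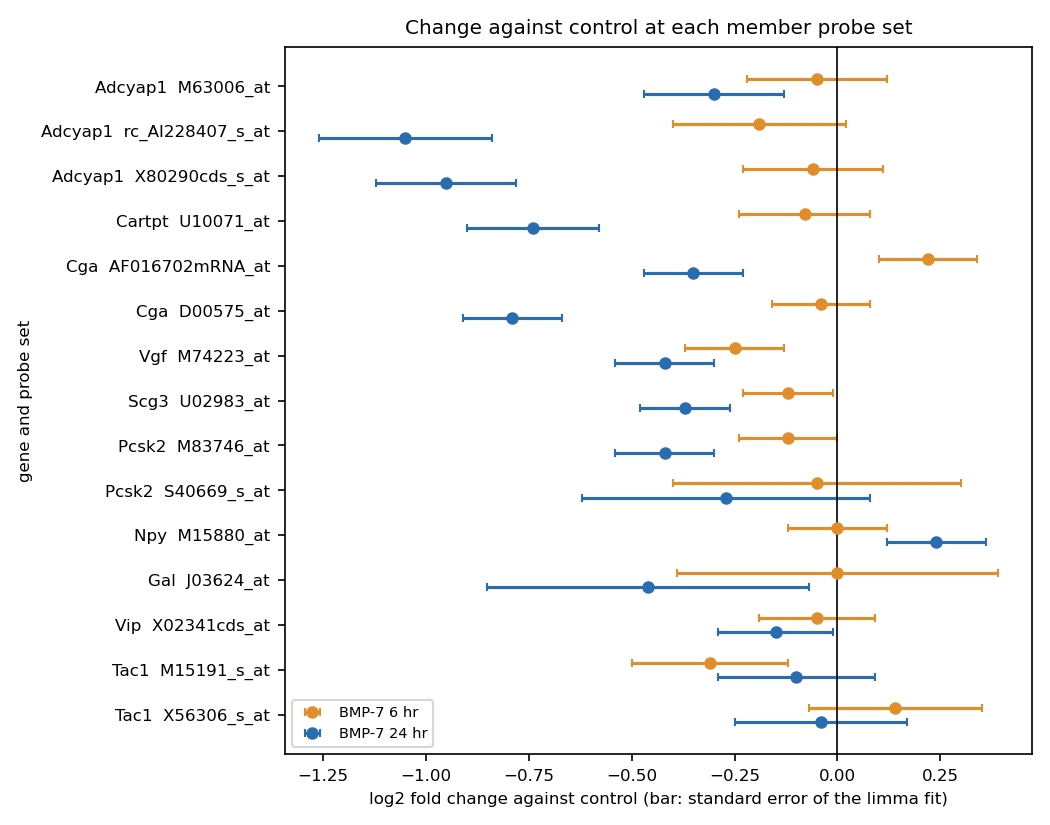
Log2 fold change against control at each of the 15 member probe sets (horizontal axis) after 6 hr and 24 hr of BMP-7, with the standard error of the limma fit as the bar (3 arrays per condition). At 24 hr the points run from -1.05 for rc_AI228407_s_at of Adcyap1 to 0.24 for Npy, and at 6 hr they lie between -0.31 and 0.22.

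Npy, the main peptide of vasoconstrictor sympathetic neurons, was the member that lay above control at 24 hr. M15880_at read 13.05, 13.01 and 13.14 in control, 13.01, 13.04 and 13.13 at 6 hr and 13.37, 13.17 and 13.37 at 24 hr. The control and 6 hr means were both 13.06, and all 24 hr arrays lay above the other 6. The log2 difference was 0.24 (standard error 0.12), 118% of the control level, and it was 0.32 in batch 1 and 0.19 in batch 2.

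Gal, the galanin precursor, varied more between replicates than between conditions. J03624_at read 11.81, 12.23 and 11.38 in control, 11.70, 12.31 and 11.40 at 6 hr and 11.45, 11.96 and 10.64 at 24 hr. The array numbered 2 was the highest and the array numbered 3 the lowest in every condition, and the groups overlapped. The log2 difference at 24 hr was -0.46 with a standard error of 0.39. That fit had no term for replicate number, so the standard error includes the spread between replicates 2 and 3. Between arrays of the same number the log2 difference was -0.37, -0.26 and -0.74 at 24 hr, and -0.11, 0.09 and 0.02 at 6 hr. Without BMP24h replicate 3 the 24 hr difference was -0.07, without BMP24h replicate 2 it was -0.79, and without control replicate 2 it was -0.23. Each of these fits left the replicate numbers unbalanced between conditions, so the values also carry the differences between replicates.

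Vip and Tac1, the precursors of vasoactive intestinal peptide and of substance P, had values near the low end of the scale. Since the table holds no detection calls, it is not known here whether these signals were above background. X02341cds_at of Vip read 4.74, 4.49 and 4.84 in control, 4.51, 4.78 and 4.64 at 6 hr and 4.62, 4.42 and 4.57 at 24 hr, with overlapping groups and a 24 hr difference of -0.15 (standard error 0.14). M15191_s_at of Tac1 read 5.59, 5.58 and 6.06 in control, 5.59, 5.14 and 5.57 at 6 hr and 5.65, 5.77 and 5.52 at 24 hr. Its differences were -0.31 at 6 hr and -0.10 at 24 hr (standard error 0.19 each), and both rested on single arrays. At 6 hr the value was -0.15 without BMP6h replicate 2 and -0.14 without control replicate 3, and at 24 hr it was 0.08 without control replicate 3. X56306_s_at of Tac1 read 4.13, 3.65 and 4.50 in control, 4.13, 4.35 and 4.22 at 6 hr and 4.11, 3.90 and 4.14 at 24 hr, a difference of -0.04.

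Around the members, 92 measured genes of the same pathways were examined in 7 lists. None of the 92 passed the adjusted test of limma in any comparison, with lowest adjusted p-values of 0.0775 at 24 hr, 0.887 at 6 hr and 0.366 for 24 hr against 6 hr. At an unadjusted p under 0.05 there were 6 at 24 hr, 0 at 6 hr and 6 for 24 hr against 6 hr. At the thresholds of the Methods 2 of the 92 were lower and 4 higher at 24 hr. Their median log2 difference at 24 hr was 0.03.

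Of 36 other peptide precursors, 15 were lower and 21 higher at 24 hr, with a median of 0.04. Pnoc, the precursor of nociceptin, read 10.41, 10.34 and 10.67 at 24 hr, against 10.18, 9.92 and 10.13 in control, a difference of 0.40 (standard error 0.15, adjusted p = 1 in limma), and its groups did not overlap. Adm, which encodes the vasodilator adrenomedullin, had the most negative value at brightest probe sets, -0.29 (standard error 0.25). Among dimmer probe sets of this list, Sst reached 0.71 and Ins2 -0.86. At 6 hr Crh, corticotropin-releasing hormone, stood at 0.77 (standard error 0.50) and rested on BMP6h replicate 2, which read 5.81 beside 4.08 and 3.82 on the other 6 hr arrays. Edn1, the endothelin precursor, stood at -0.53 at 6 hr (standard error 0.31), with 4.73, 4.08 and 4.71 at 6 hr against 4.80, 4.58 and 5.71 in control, where replicate 3 was apart.

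Of 7 other granins and granule proteins, 5 lay below control at 24 hr and the list median was -0.14. Chgb, chromogranin B, read 12.53, 12.07 and 12.57 at 24 hr, against 12.65, 12.60 and 12.86 in control, a difference of -0.32 (standard error 0.18, adjusted p = 1 in limma). Its groups did not overlap, but the 24 hr arrays spanned more than the difference. Scg2, secretogranin II, stood at -0.26 (standard error 0.17) with overlapping groups. Ptprn2, a granule membrane protein of the tyrosine phosphatase family, stood at 0.11 (standard error 0.17).

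Of 11 precursor processing enzymes, 5 were lower and 6 higher at 24 hr, with a median of 0.10. Cpd, a carboxypeptidase that trims cut precursors, had the most negative value of the 11 at brightest probe sets, -0.26 (standard error 0.13), where Pcsk2 stood at -0.42. Dimmer probe sets of Pam, on the same list, ran from -0.58 to 0.32. Those of the convertases Furin and Pcsk5 stood at 0.65 and 0.59, where their brightest stood at 0.19 and -0.03. Qpct, which forms the N-terminal pyroglutamate of several peptides, read 4.82, 4.79 and 5.19 at 24 hr, against 4.25, 3.98 and 4.11 in control, a difference of 0.82 (standard error 0.15, adjusted p = 0.145 in limma) at the low end of the scale. Ctsl, a protease that cuts some precursors in granules, stood at 0.35 (standard error 0.12, adjusted p = 1 in limma). At 6 hr Pcsk7, another convertase, stood at -0.27 and Cpz, a carboxypeptidase, at 0.33, neither past the adjusted test. The dimmer probe set of Pcsk7 went the other way at 6 hr, at 0.57.

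Of 12 peptide-degrading enzymes, 10 were higher at 24 hr, with a median of 0.14. The highest was Prep, prolyl endopeptidase, which read 7.98, 7.85 and 8.18 at 24 hr, against 7.68, 7.73 and 7.53 in control, a difference of 0.36 (standard error 0.18, adjusted p = 1 in limma). At 6 hr Nln, neurolysin, stood at -0.25 and Ide, the insulin-degrading enzyme, at 0.33 (standard error 0.21 each), neither past the adjusted test. The dimmer probe set of Ide stood at -0.20 at 6 hr.

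Of 15 receptors of the member peptides, 8 were lower and 7 higher at 24 hr. Npy1r, a receptor of neuropeptide Y, read 5.94, 5.79 and 6.71 at 24 hr, against 7.03, 6.78 and 7.61 in control, a difference of -0.99 (standard error 0.36, adjusted p = 1 in limma). Its groups did not overlap, while the replicates of a condition spanned nearly as much as the difference. Npy4r, another receptor of the family, stood at 0.39 (standard error 0.28). At its brightest probe set Adcyap1r1, the PACAP receptor, lay above every control array at 6 hr (0.53, standard error 0.25, adjusted p = 0.887 in limma). It read 6.91, 7.23 and 6.49 there, against 6.28, 6.37 and 6.39 in control, and stood at 0.09 at 24 hr. Its other probe sets stood at 0.47 and -0.23 at 6 hr.

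Of 8 noradrenergic and cholinergic genes, 5 were lower and 3 higher at 24 hr. Th, the rate-limiting enzyme of catecholamine synthesis, stood at -0.08 (standard error 0.11) and Dbh, which makes noradrenaline, at 0.24 (standard error 0.10). Gch1, whose product makes the cofactor of Th, read 10.62, 10.37 and 10.80 at 24 hr, against 9.59, 9.56 and 9.80 in control, a difference of 0.95 (standard error 0.15) with an adjusted p of 0.0775 in limma. Ddc, which forms dopamine, stood at -0.45 (standard error 0.12, adjusted p = 0.632 in limma), with 10.36, 10.21 and 10.51 at 24 hr against 10.76, 10.91 and 10.75 in control. At 6 hr Slc6a2, the noradrenaline transporter, stood at 0.41 and Slc18a3, the vesicular acetylcholine transporter, at -0.25, neither past the adjusted test.

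**Figure D4:**
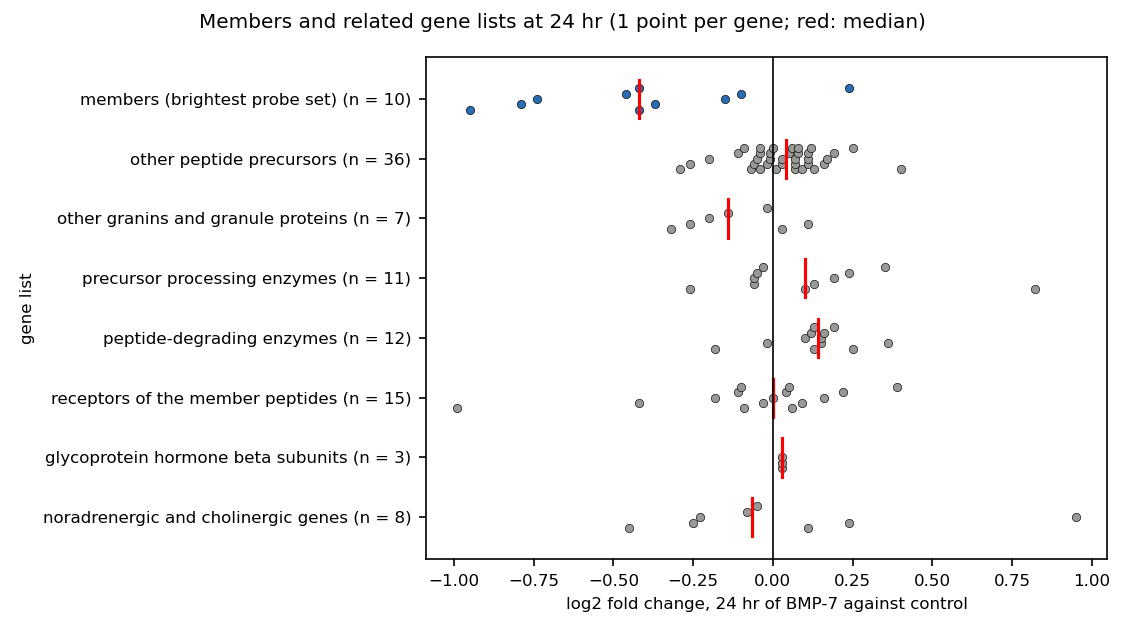
Log2 fold change at 24 hr of BMP-7 against control (horizontal axis) for the 10 members and for each gene of the 7 related lists, 1 point per gene at its brightest probe set, with the median of each list in red. The member median lies at -0.42 and those of the other lists between -0.14 and 0.14.

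Sympathetic neuron markers (13 of 17 measured) had control means from 7.39 for Gata3 to 13.49 for Th. The 13 averaged 11.03 to 11.25 on the BMP24h arrays and 11.10 to 11.19 on the control arrays. Fibroblast and matrix markers (10 of 11 measured) averaged 9.03 to 9.24 on the BMP24h arrays, below the 9.34 to 9.65 of the control arrays, with 8 of 10 lower and Dcn, decorin, at -0.73 (standard error 0.17, adjusted p = 0.323 in limma). They averaged 9.40 to 9.48 at 6 hr. Col1a1, a collagen chain, stood at 0.08 (standard error 0.13). Endothelial and mural markers (7 of 9 measured) averaged 7.08 to 7.17 on the BMP24h arrays, wholly below the 7.19 to 7.46 of the control arrays, and 7.07 to 7.21 at 6 hr, with 4 of 7 lower at 24 hr. Among them Kdr, a VEGF receptor, read 4.92, 3.99 and 4.28 at 24 hr, against 4.76, 5.59 and 7.02 in control, a difference of -1.39 (standard error 0.56, adjusted p = 1 in limma) with overlapping groups, and it stood at -1.54 at 6 hr (adjusted p = 0.887 in limma). The other genes of the endothelial and mural list stood between -0.19 and 0.32 at 24 hr, so its lower average owed most to Kdr. Macrophage and blood markers (8 of 11 measured) averaged 6.62 to 6.72 on the BMP24h arrays and 6.65 to 6.85 on the control arrays, with 6 of 8 lower. Glial markers (9 of 13 measured) averaged 6.95 to 7.18 on the BMP24h arrays and 7.00 to 7.06 on the control arrays. Pnmt, the only chromaffin marker looked up, stood at -0.18 at 24 hr (standard error 0.20). The part of these other cells in the member values was not tested.

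One array stood apart, BMP6h replicate 2, where 9.99% of probe sets differed by over 1 log2 unit from the average of both sister arrays. The share was 4.21% on BMP6h replicate 3 and 3.84% on control replicate 3, and no other array exceeded 1.09%. With BMP6h replicate 2 left out, the member median at 6 hr was -0.11.

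The genes with the nearest pattern were sought for the 3 members with a log2 difference of at least 0.5 at 24 hr, by the root mean square difference of centered log2 values over the 9 arrays among 4735 other genes. Nearest to Adcyap1 were Plcb1, a phospholipase C (0.095), Maoa, monoamine oxidase A (0.107), and Ptprr, a tyrosine phosphatase (0.117). Nearest to Cartpt were Pde4b, a cAMP phosphodiesterase (0.091), Calb1, calbindin (0.095), and Maoa at another probe set (0.11). Nearest to Cga were Adgrl2, an adhesion receptor (0.135), Loxl1, a lysyl oxidase (0.137), and Gas6, a ligand of receptor tyrosine kinases (0.144). These genes were picked for the likeness, which is a description over arrays that share hybridization batches.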

How the data were processed

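RNA was measured on 9 Rat Genome U34A arrays. The authors computed log2 expression values by RMA in Partek and removed the batch difference before depositing them. In the table, batch means agreed within 6.7e-05 for every probe set, and no arrays were identical. Arrays give no depth, and their number sets the precision. After 59 control probe sets were dropped from 8799, 8740 were tested. The platform annotation names 1 gene for 7006 of them, several for 308 and none here for 1426.

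The comparison used limma 3.58.1 (R 4.3.3) with terms for condition and batch, which left 5 residual degrees of freedom, and Benjamini-Hochberg adjustment over all probe sets, after a check on simulated data. P-values measure only the spread between these cultures, and RMA can compress fold changes. Lists and medians use the probe set of a gene with the highest mean, and members are given at all of theirs.

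Members and lists were chosen with earlier results of these data known. The genes named are all members, and of each pathway list those past the adjusted test and those with the largest rise and fall at each time among genes on one side of the control mean on every array, and of the marker lists those at the top. Scg2, Ctsl, Fshb, Dbh, Gata3, Col1a1, Dcn, Kdr, Pnmt, Sst, Ins2, Pam, Furin and Pcsk5 were named outside that rule, after their values were seen. Promoter sequences come from RefSeq (GRCr8). Alternatives were a fit without batch, replicate number as a block, array weights, repeated quantile normalization, median centring, each batch alone, the ordinary two-way analysis of variance, an intensity trend, removal of the dimmest probe sets, the mean over probe sets, and leaving out each array.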

Additional observations from a re-analysis of the deposited data

Results flagged for a closer look

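One result stood out because its times lay on opposite sides of control. At the dimmer probe set of Cga (AF016702mRNA_at), every 6 hr array was above and every 24 hr array below the control arrays, and 24 hr lay -0.56 from 6 hr on the log2 scale. The difference between the times was given no p, since these contrasts chose the gene. The assignment of this probe set to Cga, like that of the brighter one, rests on the platform annotation and was not checked here. The brighter probe set of Cga, D00575_at, was at -0.04 at 6 hr.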

How the results depend on the processing

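At 24 hr against control, 9 of 10 members kept their sign under all 17 alternatives. The exception, Tac1, changed sign with array weights, without control replicate 3 and in batch 1 alone. At 6 hr only Vgf, Scg3 and Pcsk2 kept theirs throughout. Not all alternatives could move a difference in this balanced design. The fit without batch, the replicate block and leaving out an array of the condition not compared returned the main values. The member median at 24 hr (-0.42) was -0.46 with array weights and -0.45 to -0.37 with 1 array left out. At 6 hr (-0.07) it was -0.08 with median centring, in batch 2 alone and with the mean over probe sets, and -0.11 to -0.06 with 1 array left out. For 24 hr against 6 hr (-0.28) it was -0.22 in batch 2 alone and -0.28 to -0.22 with 1 array left out. Counts of calls depended on the fit. Batch had been removed from the values beforehand, so the fit without the batch term counted a residual degree of freedom already used. That can raise its calls. For the other settings the cause was not tested. At 24 hr against control, where 19 probe sets passed, there were 38 without the batch term, 280 with array weights (0.093 to 5.764), 42 with an intensity trend, 31 with the dimmest probe sets removed, 292 at the thresholds of the Methods, 0 in batch 2 alone, 0 in the ordinary analysis of variance and 0 to 26 with 1 array left out. There were 0 without control replicate 1 or any 1 BMP24h array. At 6 hr against control, where 4 passed, the same settings gave 9, 29, 10, 7, 151, 0, 0 and 0 to 3. For 24 hr against 6 hr, where 0 passed (259 at an unadjusted p under 0.05), there were 6 without the batch term, 198 with array weights, 7 with the trend, 3 with the dimmest removed and 255 at the thresholds of the Methods. With the replicate block there were 18 at 24 hr, 4 at 6 hr and 5 for 24 hr against 6 hr. The labels do not say whether arrays of the same number share a dissection. Batch removal forces replicate 1 deviations to cancel across the conditions, so replicate 1 cannot show pairing. In batch 2 the replicate 2 minus replicate 3 difference correlated at 0.048 (BMP6h and control), 0.017 (BMP24h and control) and 0.4 (BMP24h and BMP6h). The numbers were not taken as pairs in the main fit. Of the 15 member probe sets, where 0 passed at 24 hr, there were 2 without the batch term, 10 with array weights, 2 with the trend, 1 with the dimmest removed and 8 at the thresholds of the Methods, and for 24 hr against 6 hr 6 with array weights, 1 with the trend and 6 at those thresholds. Of the 92 list genes, where 0 passed at 24 hr, there were 2 without the batch term, 6 with array weights, 1 with quantile normalization repeated, 1 with the trend, 1 with the dimmest removed and 6 at the thresholds of the Methods, and for 24 hr against 6 hr 5 with array weights and 6 at those thresholds. Leaving out any 1 array gave 0 calls for members and lists.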
